A study of Rattus norvegicus with 6 samples.

Results

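Myc and genes of nucleolar ribosome biogenesis, 48 in all, were followed in primary rat oligodendrocyte cultures given cholesterol. They were chosen by name, and 47 of them matched an entry among the 20422 genes of the deposited table. All 47 passed the filter on low counts and were tested among 16182 genes, and Dkc1 was not analysed here. The cells, the myelin-forming glia of the central nervous system, were cultured from rats at postnatal day 1. In 3 libraries the cells had received 0.01 mM water-soluble cholesterol for 12 h, and in 3 libraries phosphate-buffered saline (PBS) for 12 h. The labels name no rat strain and do not say whether the 3 libraries of a group came from separate cultures. A p-value here therefore reflects the spread among these libraries alone, which may be technical. Water-soluble cholesterol is commonly a complex with cyclodextrin, and no group with the carrier by itself was analysed here.

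Ribosomes are assembled in the nucleolus. RNA polymerase I transcribes a long ribosomal RNA precursor, small nucleolar ribonucleoproteins modify it, and large sets of assembly factors fold and cut it while ribosomal proteins are added. The transcription factor MYC is known for activating genes at every one of these steps, and it binds DNA with its partner MAX at the E-box, the motif CACGTG. In the oligodendrocyte lineage, MYC activity is known as a feature of dividing precursors.

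The cholesterol libraries held 63769532 to 67656224 counts and the PBS libraries 68902794 to 70878378. Markers of the oligodendrocyte lineage were abundant in every library, and those of other cell types were present too. FPKM is a level corrected for transcript length and library size. The FPKM of 11 oligodendrocyte markers summed to between 7827 and 8904 in cholesterol libraries, against 5154 to 5261 in PBS libraries. The sums were 455 to 537 against 618 to 634 FPKM for 6 precursor markers, 147 to 200.2 against 221 to 235 FPKM for 12 microglial markers, and 790 to 851 against 549 to 557 FPKM for 8 astrocyte markers. At the threshold used below, 7 of the oligodendrocyte markers were higher and 1 lower, 1 of the precursor markers was higher and 4 lower, 1 of the microglial markers was higher and 8 lower, and 6 of the astrocyte markers were higher and 1 lower. Neuronal markers summed to 180 to 189 FPKM against 179 to 187 FPKM, those of fibroblasts and pericytes to 16.3 to 19.99 against 15.3 to 20.7 FPKM, and those of endothelium to 2.01 to 2.53 against 2.71 to 3.09 FPKM. Of 8 neuronal markers, 1 was lower and 0 higher. Of 5 fibroblast and pericyte markers tested, 2 were higher and 1 lower, and of 4 endothelial markers 1 was higher and 1 lower. Cldn5, a further listed endothelial marker, matched no entry, and no marker with an entry was at 0 in all libraries. In bulk cultures a smaller number of cells of a type and less RNA per cell cannot be told apart, and the part of these shifts in the results below was not tested.

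After cholesterol, Myc fell, and so did most of the ribosome biogenesis genes, by modest amounts. Of the 47 genes, 30 were lower and 1 was higher at an adjusted p under 0.05 (edgeR's quasi-likelihood test with Benjamini-Hochberg adjustment over all 16182 genes tested), and 16 did not pass. Lower genes made up 63.8% of the 47, against 19.7% of all genes tested. Higher genes made up 2.13% of the 47, against 20.5% of all genes, and 40.3% of all genes passed in either direction. With libraries scaled to their median instead of by TMM, 37 of the 47 were lower and 0 higher. That scaling also moved the genes as a whole, with 25.7% of all genes lower and 15.6% higher. Of all calls, 37.7% were then higher, against 51.0% with TMM. The median log2 fold change of the 47 was -0.22, and that of all genes was 0.0053. The fall was at least 25% for 10 of the 47 genes (6.25% of all genes), and none of the 47 changed 2-fold (3.6% of all genes). In 36 of the 47 all 3 cholesterol values lay below all 3 PBS values (25.7% of all genes), and in 1 they lay above (26.6%, or 52.3% of all genes either way). The genes had been chosen with earlier results of these data known, so these counts are a description and not a test of the group.

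The fall was seen in each library given cholesterol. In cholesterol replicates 1, 2 and 3 the median of the 47 genes stood at -0.27, -0.24 and -0.23 on the log2 scale relative to the mean of the PBS libraries, and in PBS replicates 1, 2 and 3 at -0.0079, 0.00044 and -0.0031. Of the 47 genes, 41, 38 and 39 were below the lowest PBS value in cholesterol replicates 1, 2 and 3 (87.2%, 80.9% and 83.0%), against 38.3%, 38.4% and 37.2% of all genes tested. The FPKM of the 47 genes summed to 1047, 1092 and 1086 in cholesterol libraries, against 1242, 1242 and 1250 in PBS libraries.

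**Figure D1:**
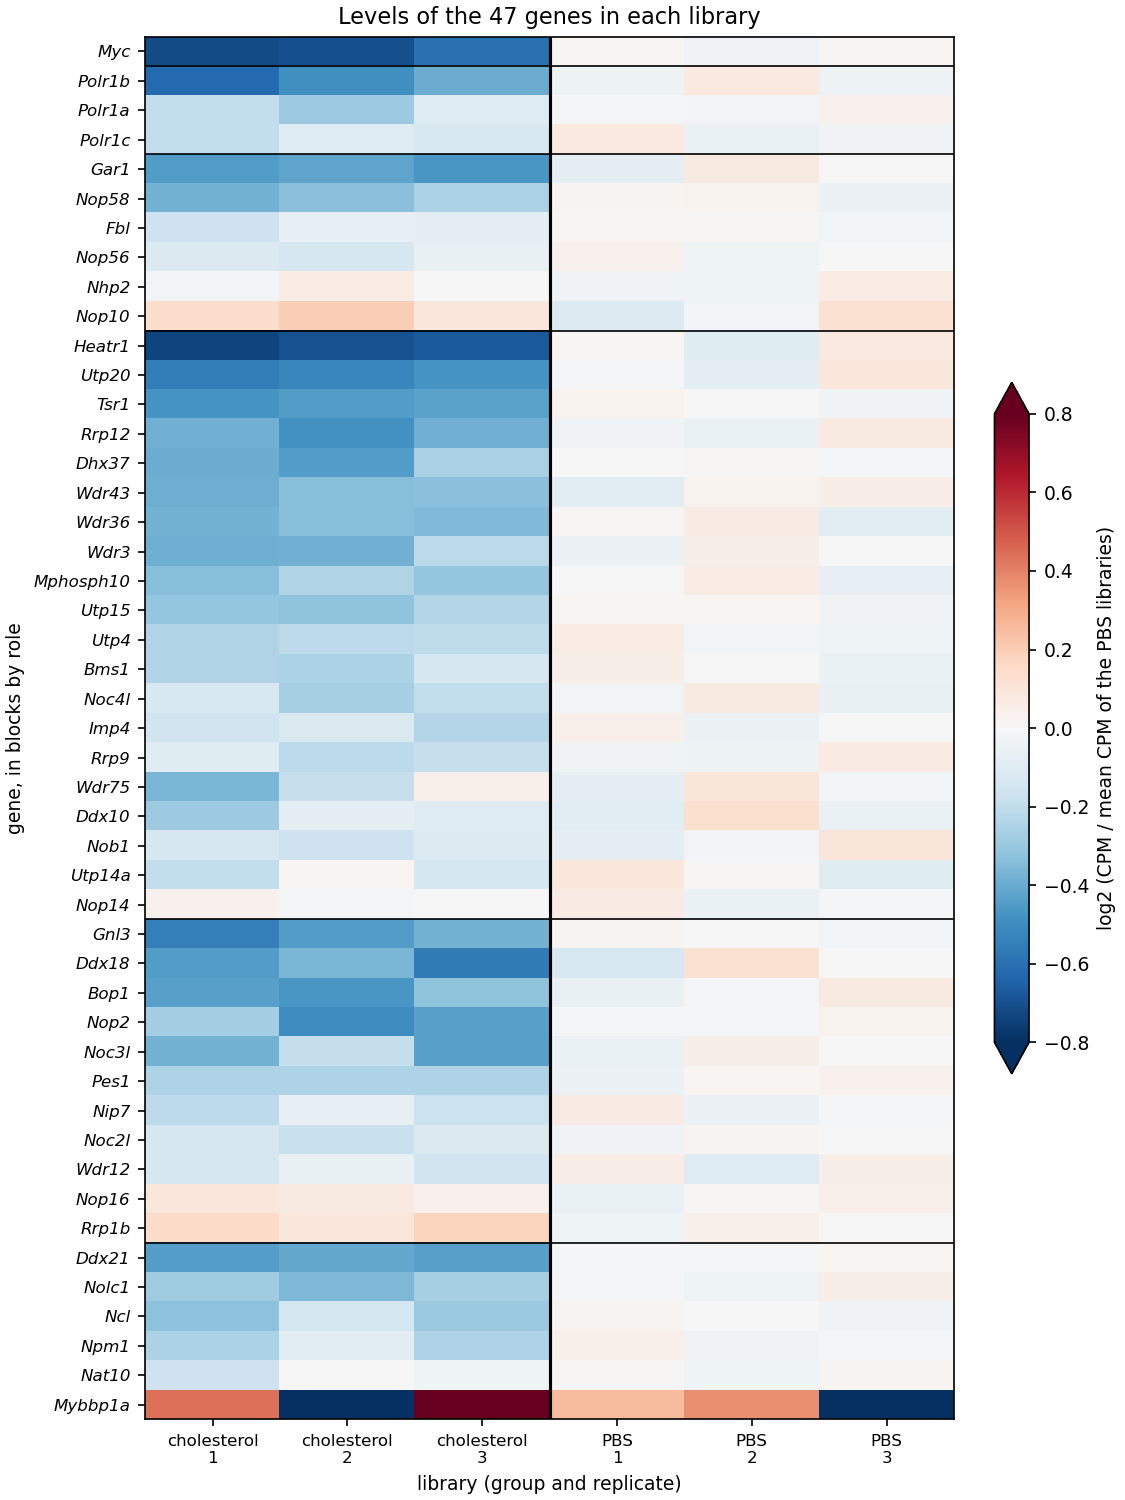
Level of each of the 47 genes (rows, in blocks by role) in each library (columns, cholesterol left, PBS right), as the log2 ratio of its CPM (counts scaled to library size) to its mean in the PBS libraries. Blue marks a lower and red a higher level; most rows are blue in all 3 cholesterol libraries, and Mybbp1a passes the ends of the color scale in both groups.

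Myc had 66.7, 67.2 and 72.4 CPM in cholesterol libraries, against 111, 107 and 110 CPM in PBS libraries, with library sizes scaled by TMM. The groups did not overlap, and the highest cholesterol value was well below the lowest PBS value. Its log2 fold change was -0.67 ± 0.042 (SE, adjusted p = 2.69e-06), a fall of 37.2%. Per transcript length, Myc stood at 27.3 ± 1.42 FPKM after cholesterol and 43.1 ± 0.682 FPKM after PBS (SD, n = 3 each). Among the 47 genes, only Heatr1 had a lower log2 fold change. Its relatives Mycl and Mycn did not pass. Mycl was at 123 ± 5.45 CPM after cholesterol and 126 ± 3.0 CPM after PBS (log2 fold change -0.04, adjusted p = 0.538), and Mycn, the least abundant of the family per length (3.32 and 3.30 FPKM), had a log2 fold change of -0.0041 (adjusted p = 0.982). The difference between Myc and its relatives was not itself tested.

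The partners and antagonists of MYC moved both ways. Of 11 listed genes, 5 were lower (45.5%, against 19.7% of all genes) and 2 higher (18.2%, near the 20.5% of all genes). Their median log2 fold change was -0.06. Max, the shared DNA-binding partner, fell slightly, with 74.8 ± 1.80 CPM after cholesterol and 82.9 ± 2.67 CPM after PBS (-0.15, adjusted p = 0.0139). Several repressors that also bind MAX fell further, namely Mga (-0.46), Mnt (-0.43) and Mxd4 (-0.37), as did Mlxip (-0.34), which pairs with MLX. Mxi1, another MAX-binding repressor (0.15), and Mlx (0.24) rose. Mxd1 and Mxd3, relatives of Mxd4, did not pass. 

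Promoters were searched for the E-box. RefSeq promoter windows on the GRCr8 build, reaching from 250 bases before to 50 after the start of the gene, were found for 44 of the 47 genes, while Myc, Wdr43 and Bop1 had no entry. The motif CACGTG, which reads the same on both strands, occurred in 13 of the 44 windows (29.5%), in 22 of 81 windows of the wider list of biogenesis factors described below (27.2%), in 6 of 19 windows of MYC targets outside the nucleolus (31.6%) and in 6.42% of all 33469 windows of the table, or 8.79% of the 13005 windows of genes tested. The motif was in 9 of 27 windows of genes that fell (33.3%) and in 4 of 17 windows of the others (23.5%). These shares were not adjusted for base composition, and a match is only a description of the letters. The 3 windows shown belong to the genes with an E-box that had the smallest p-values, and capitals mark the E-box. They lie on GRCr8 at chr10:60258540-60258839 (plus strand, Tsr1), chr16:6219733-6220032 (minus strand, Gnl3) and chr7:25102800-25103099 (minus strand, Utp20), each printed in the direction of the gene. The E-box begins at base 21 of the transcript of Tsr1, 25 bases before the start of Gnl3 and 127 bases before that of Utp20.
Tsr1: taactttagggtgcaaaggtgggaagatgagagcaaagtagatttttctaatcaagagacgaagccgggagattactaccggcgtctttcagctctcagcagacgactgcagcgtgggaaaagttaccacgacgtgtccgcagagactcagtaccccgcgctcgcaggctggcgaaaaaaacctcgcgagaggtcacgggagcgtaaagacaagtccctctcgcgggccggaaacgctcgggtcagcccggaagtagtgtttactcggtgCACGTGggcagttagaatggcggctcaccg
Gnl3: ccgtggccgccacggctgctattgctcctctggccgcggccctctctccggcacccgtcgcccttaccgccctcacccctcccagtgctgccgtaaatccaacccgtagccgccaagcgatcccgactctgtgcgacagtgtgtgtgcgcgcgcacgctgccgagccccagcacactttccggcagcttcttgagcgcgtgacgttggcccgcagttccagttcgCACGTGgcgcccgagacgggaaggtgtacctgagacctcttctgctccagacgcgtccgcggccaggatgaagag
Utp20: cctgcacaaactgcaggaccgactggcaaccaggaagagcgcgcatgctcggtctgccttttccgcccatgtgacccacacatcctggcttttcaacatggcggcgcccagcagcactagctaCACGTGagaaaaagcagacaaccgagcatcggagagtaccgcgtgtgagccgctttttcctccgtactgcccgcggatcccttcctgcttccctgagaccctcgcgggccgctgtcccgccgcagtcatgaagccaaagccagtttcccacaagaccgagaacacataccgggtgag

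RNA polymerase I, the enzyme of ribosomal RNA transcription, was lower in both of its large subunits. Polr1b, the second-largest subunit, had 18.2, 19.9 and 21.2 CPM in cholesterol libraries, against 27.2, 29.5 and 27.3 CPM in PBS libraries. The groups were apart, and the change was -0.50 ± 0.074 on the log2 scale (SE, adjusted p = 3.98e-04). Polr1a, the largest subunit, had 44.9, 42.03 and 47.95 CPM in cholesterol libraries, against 51.1, 50.8 and 52.6 CPM in PBS libraries, a log2 fold change of -0.20 (adjusted p = 0.0176). The call for Polr1a ended without PBS replicate 3, with a correction for transcript length and in FPKM. Polr1c, a subunit shared with RNA polymerase III, had 35.9, 38.2 and 37.6 CPM in cholesterol libraries, against 43.4, 39.5 and 40.2 CPM in PBS libraries. These groups did not overlap either, but the difference did not pass (-0.14, adjusted p = 0.075).

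Of 16 further genes of the RNA polymerase I machinery that were tested, 5 were lower (31.25%, against 19.7% of all genes). In the other direction 3 were higher (18.75%), near the 20.5% of all genes. The median log2 fold change of the 16 was -0.09. Ubtf, the factor that bends the ribosomal gene promoter and keeps it open, fell to 145 ± 2.32 CPM after cholesterol, against 182 ± 0.150 CPM after PBS (-0.33, adjusted p = 3.32e-05). Polr1e (-0.48), Rrn3, the initiation factor that links the polymerase to the promoter (-0.23), and Polr1g (-0.28) fell as well, and the remaining lower gene was Taf1c (-0.39). The 3 higher genes were small subunits, among them Polr2f (0.45) and Polr2k (0.31), which all nuclear RNA polymerases share, and Polr1h (0.29).

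The RNA-guided modification particles had the smallest share of lower genes among the roles, with 2 of 6 lower (33.3%, against 19.7% of all genes) and 0 higher. Their transcripts also had the shortest median length of any role, 1691.5 bases, against 3143 over the 47 genes. Their median log2 fold change was -0.10. Box C/D particles methylate ribosomal RNA, with fibrillarin (Fbl) as the methyltransferase and Nop56 and Nop58 as its scaffold. Nop58 had 69.4, 71.5 and 75.8 CPM in cholesterol libraries, against 91.6, 92.0 and 87.3 CPM in PBS libraries (-0.32 ± 0.044, SE, adjusted p = 2.73e-04). Nop56, the scaffold partner of Nop58, had 102, 101 and 106 CPM in cholesterol libraries, against 113, 108 and 111 CPM in PBS libraries (-0.10, adjusted p = 0.0526). Fbl had 61.6, 66.1 and 65.3 CPM in cholesterol libraries, against 69.8, 69.4 and 68.1 CPM in PBS libraries (-0.10, adjusted p = 0.0788). For all 3 genes every cholesterol value lay below every PBS value, but only Nop58 passed. Nop56 passed in 5 of the 16 alternative settings and Fbl in 3. With the correction for transcript length both passed (adjusted p = 0.0059 and 0.0041), so the rank of this role depends on the processing.

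Box H/ACA particles convert uridine to pseudouridine. Their subunit Gar1 had 13.6, 13.9 and 13.4 CPM in cholesterol libraries, against 17.7, 19.5 and 18.5 CPM in PBS libraries. The groups were far apart, at -0.44 ± 0.072 on the log2 scale (SE, adjusted p = 7.31e-04). The other subunits overlapped between groups, with log2 fold changes of 0.01 for Nhp2 (adjusted p = 0.875) and 0.14 for Nop10 (adjusted p = 0.109). Differences between subunits of a particle were not tested.

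**Figure D2:**
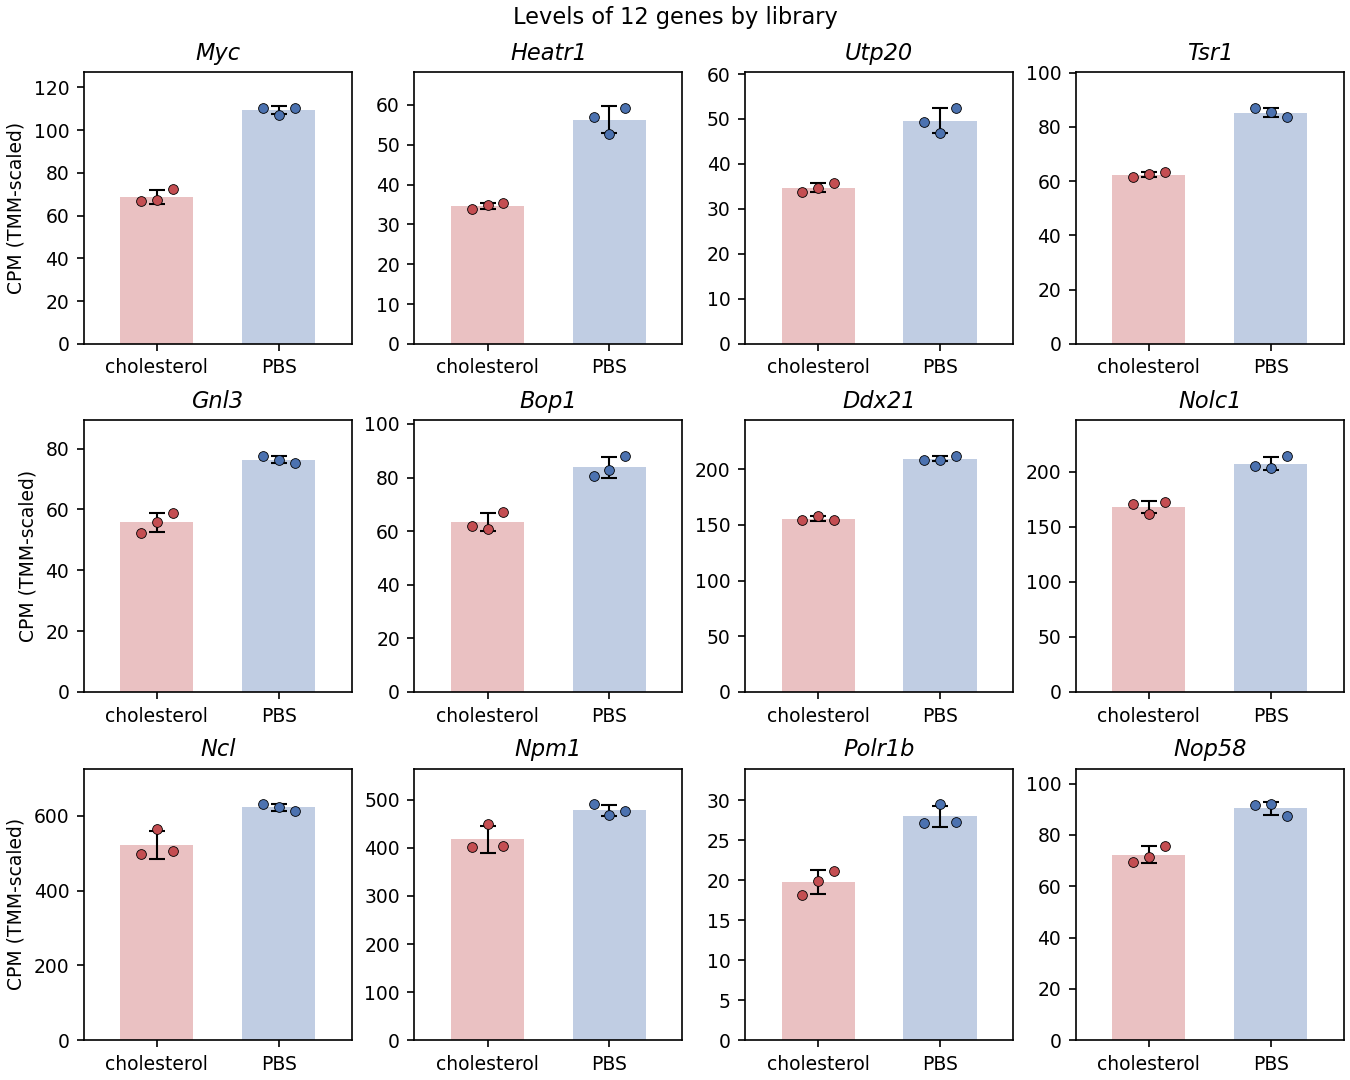
CPM of 12 genes in each library (points), with the mean of 3 libraries (bar) and its SD (error bar), cholesterol left and PBS right in each panel. All 12 were picked from the 30 genes that passed as lower, so cholesterol points below the PBS points in every panel reflect that choice. Of the 47 genes, 16 did not pass and 1 was higher. Myc averaged 68.8 CPM after cholesterol and 109 CPM after PBS.

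The small-subunit processome, the large particle that assembles on the newborn transcript, belongs to the largest of the roles. Of 20 genes of the processome and of later small-subunit maturation, 14 were lower (70.0%, against 19.7% of all genes) and 0 higher. Their median log2 fold change was -0.25, in a range of -0.70 to 0.0066. The share of lower genes was close to that of RNA polymerase I and the nucleolar scaffold role (66.7% each) and of large-subunit assembly (63.6%). Heatr1, a very large scaffold protein that also links the processome to ribosomal RNA transcription, had 33.9, 34.8 and 35.3 CPM in cholesterol libraries, against 56.9, 52.7 and 59.3 CPM in PBS libraries. Its log2 fold change was -0.70 ± 0.056 (SE, adjusted p = 9.80e-06), a fall of 38.4% and the largest among the 47 genes.

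Utp20, another giant repeat protein of the processome, had 33.8, 34.6 and 35.8 CPM in cholesterol libraries, against 49.3, 46.99 and 52.5 CPM in PBS libraries (-0.52 ± 0.057, SE, adjusted p = 6.98e-05). Tsr1, which guards late maturation of the small subunit in the cytoplasm, had 61.5, 62.5 and 63.3 CPM in cholesterol libraries, against 87.1, 85.3 and 83.5 CPM in PBS libraries (-0.45 ± 0.038, SE, adjusted p = 1.35e-05). The spread within each group was small beside the gap between them for both genes, whose E-box windows are printed above.

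The subcomplex that binds the start of the transcript is known from yeast as t-UTP or UTP-A. Of its 5 listed genes, 4 fell, against 19.7% of all genes, but this small group was spelled out after its values were seen. The 4 were Heatr1, Wdr43, Utp15 (-0.29) and Utp4 (-0.22). Wdr43 had 56.8, 58.7 and 58.9 CPM in cholesterol libraries, against 70.2, 75.8 and 77.2 CPM in PBS libraries (-0.36 ± 0.047, SE, adjusted p = 2.07e-04). Wdr75, from the same subcomplex, varied within the cholesterol group, with 33.8, 38.2 and 44.7 CPM against 41.2, 46.5 and 42.8 CPM in PBS libraries, and did not pass (-0.16, adjusted p = 0.195).

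Wdr36 (-0.36) and Wdr3 (-0.33) of the UTP-B subcomplex fell, together with the processome proteins Mphosph10 (-0.30) and Imp4, which bind each other. Imp4, the most abundant of the 20 genes per length, had 66.9, 69.0 and 63.8 CPM in cholesterol libraries, against 77.1, 72.4 and 75.03 CPM in PBS libraries (-0.17, adjusted p = 0.0122), a call that ended without PBS replicate 1. The enzymes Dhx37, a helicase that helps to dismantle the processome (-0.37), and Bms1, a GTPase (-0.21), fell, as did Rrp12, an export factor (-0.42). Noc4l fell too (-0.20, adjusted p = 0.0339), but its call ended without PBS replicate 1 or 2, without cholesterol replicate 2 or 3 and with a term for the replicate number. Its binding partner Nop14 was at 58.6 ± 0.912 CPM after cholesterol and 58.4 ± 2.42 CPM after PBS (0.0066, adjusted p = 0.924). The remaining genes that did not pass were Rrp9 (-0.16, adjusted p = 0.0518), Nob1, the nuclease of the final small-subunit cut (-0.14, adjusted p = 0.0593), Ddx10 (-0.15, adjusted p = 0.19) and Utp14a (-0.10, adjusted p = 0.291).

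**Figure D3:**
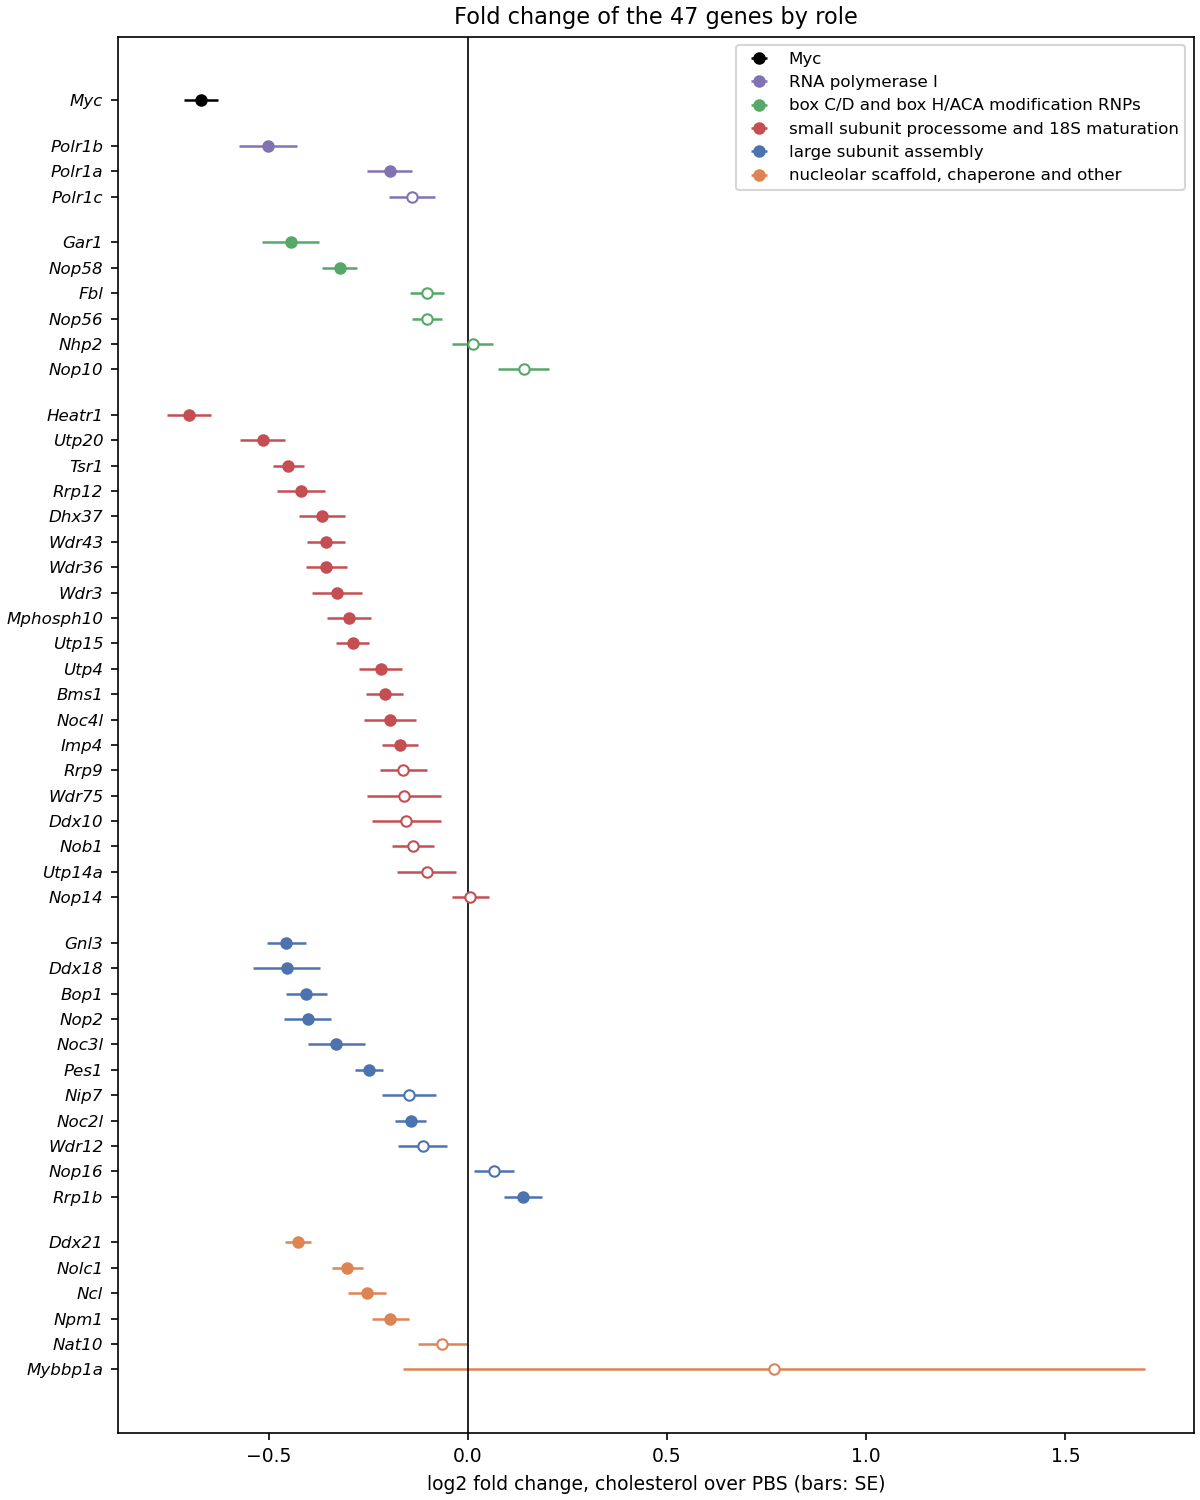
Log2 fold change (cholesterol over PBS) of the 47 genes, in blocks by role, with SE bars; filled points passed an adjusted p of 0.05 and open points did not. Points lie left of 0 for 41 genes, from -0.70 for Heatr1, and Mybbp1a has the widest bar, with an SE of 0.932.

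Factors of large-subunit assembly were mostly lower, 7 of 11 (63.6%, against 19.7% of all genes), with 1 higher (9.09%, against 20.5%). Their median log2 fold change was -0.25. Gnl3 (nucleostemin), a nucleolar GTPase of proliferating and stem cells whose promoter is printed above, had 52.4, 56.0 and 58.8 CPM in cholesterol libraries, against 77.6, 76.2 and 75.3 CPM in PBS libraries. Its log2 fold change was -0.46 ± 0.049 (SE, adjusted p = 5.66e-05), and the groups were far apart.

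The PeBoW complex, which is needed to process large-subunit RNA, is made of Pes1, Bop1 and Wdr12. Bop1 had 62.1, 60.7 and 67.0 CPM in cholesterol libraries, against 80.5, 82.7 and 88.1 CPM in PBS libraries (-0.40 ± 0.051, SE, adjusted p = 1.61e-04). Pes1, the most abundant of the 11 genes per length at 66.9 ± 0.417 FPKM after cholesterol and 78.8 ± 2.35 FPKM after PBS, had 155.0, 155.4 and 154.9 CPM in cholesterol libraries, against 178, 186 and 188 CPM in PBS libraries (-0.25 ± 0.035, SE, adjusted p = 3.27e-04). Both genes were lower in every cholesterol library, whereas the Wdr12 values overlapped and did not pass (-0.11, adjusted p = 0.172).

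Nop2, which methylates large-subunit RNA, had 50.9, 43.4 and 45.5 CPM in cholesterol libraries, against 61.2, 60.9 and 62.7 CPM in PBS libraries (-0.40 ± 0.059, SE, adjusted p = 4.13e-04). The helicase Ddx18 (-0.45), Noc3l (-0.33) and its partner Noc2l (-0.14, adjusted p = 0.0152) also fell, but the call for Noc2l ended without PBS replicate 2 and under quantile normalization. Nip7 (-0.15, adjusted p = 0.106) and Nop16 (0.07, adjusted p = 0.34) did not pass. Rrp1b was the one gene of the 47 that rose, with 50.5, 48.4 and 51.3 CPM in cholesterol libraries, against 44.4, 46.7 and 45.4 CPM in PBS libraries (0.14 ± 0.048, SE, adjusted p = 0.0417). That call ended in 8 of the 16 alternatives, with adjusted p between 0.0161 and 0.244 over all of them.

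Of 6 genes whose products organise the nucleolus or act in it in other ways, 4 were lower (66.7%, against 19.7% of all genes) and 0 higher. Their median log2 fold change was -0.22. Nucleolin (Ncl) and nucleophosmin (Npm1), an RNA-binding protein and a chaperone that fill the nucleolus, were the most abundant of the 47 genes per length. Ncl stood at 116 ± 8.42 FPKM after cholesterol and 137 ± 2.197 FPKM after PBS, and Npm1 at 118 ± 7.90 and 134 ± 3.10 FPKM (SD, n = 3 each). Ncl had 497, 566 and 506 CPM in cholesterol libraries, against 632, 625 and 612 CPM in PBS libraries (-0.25 ± 0.047, SE, adjusted p = 0.00179). Npm1 had 401, 450.3 and 403 CPM in cholesterol libraries, against 491, 469 and 476 CPM in PBS libraries (-0.19 ± 0.047, SE, adjusted p = 0.0072), and its call ended under quantile normalization. For both genes cholesterol replicate 2 lay highest of its group but below all PBS libraries.

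Ddx21, a nucleolar RNA helicase, had 154, 158 and 155 CPM in cholesterol libraries, against 208, 208 and 212 CPM in PBS libraries (-0.43 ± 0.033, SE, adjusted p = 7.34e-06), and its values hardly varied within a group. Nolc1, a chaperone of small nucleolar particles, had 170, 162 and 172 CPM in cholesterol libraries, against 205, 203 and 214 CPM in PBS libraries (-0.30 ± 0.039, SE, adjusted p = 1.81e-04). Nat10, which acetylates ribosomal RNA, did not pass (-0.06, adjusted p = 0.449). 

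Mybbp1a, a MYB-binding nucleolar protein, varied more within groups, relative to its mean, than any other of the 47 genes, with 12.5, 0.147 and 34.6 CPM in cholesterol libraries, against 11.02, 12.0 and 4.73 CPM in PBS libraries (0.77 ± 0.932, SE, adjusted p = 0.552). Its entry overlaps that of Ggt6 on the same strand, a gene singled out after its values were seen, which had 152, 159 and 134 CPM against 189, 191 and 208 CPM. The counts of both entries summed to 165, 159 and 169 CPM in cholesterol libraries, against 200.4, 203 and 213 CPM in PBS libraries. No level of Mybbp1a alone can be read from these values. Of the 47 entries, Ncl, Nop56, Nop58, Gnl3, Wdr43 and Tsr1 overlap other entries on their own strand, among them small nucleolar RNA genes for Nop56, Wdr43 and Gnl3. For 10 others, Heatr1 and Bop1 among them, overlaps lie on the opposite strand alone. Because the sources used here do not say how strand entered the counting, these counts are less certain.

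Longer transcripts had lower fold changes. Over all genes tested, the median log2 fold change was 0.09 in the shortest of 10 length bins, 0.12 in the next and -0.13 in the longest. Among the 24 shorter of the 47 genes (928 to 3143 bases), 12 were lower and the median log2 fold change was -0.16, against 0.07 over all 6901 genes in that length range, of which 12.3% were lower. Among the 23 longer genes (3188 to 9630 bases), 18 were lower and the median was -0.32, against -0.05 over all 7349 genes in that range, of which 27.6% were lower. Across the 47 genes log2 length and log2 fold change had a Pearson r of -0.25 (Spearman rho -0.36), or -0.42 (rho -0.41) across 46 without Mybbp1a, and -0.07 (rho -0.16) across 15920 genes. Genes share the same 6 libraries and are not independent replicates. With the length trend removed from all genes, 35 of the 47 were lower and 1 higher, at a median of -0.25. Of all genes, 17.6% were then lower and 19.8% higher, at a median of 0.0051.

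**Figure D4:**
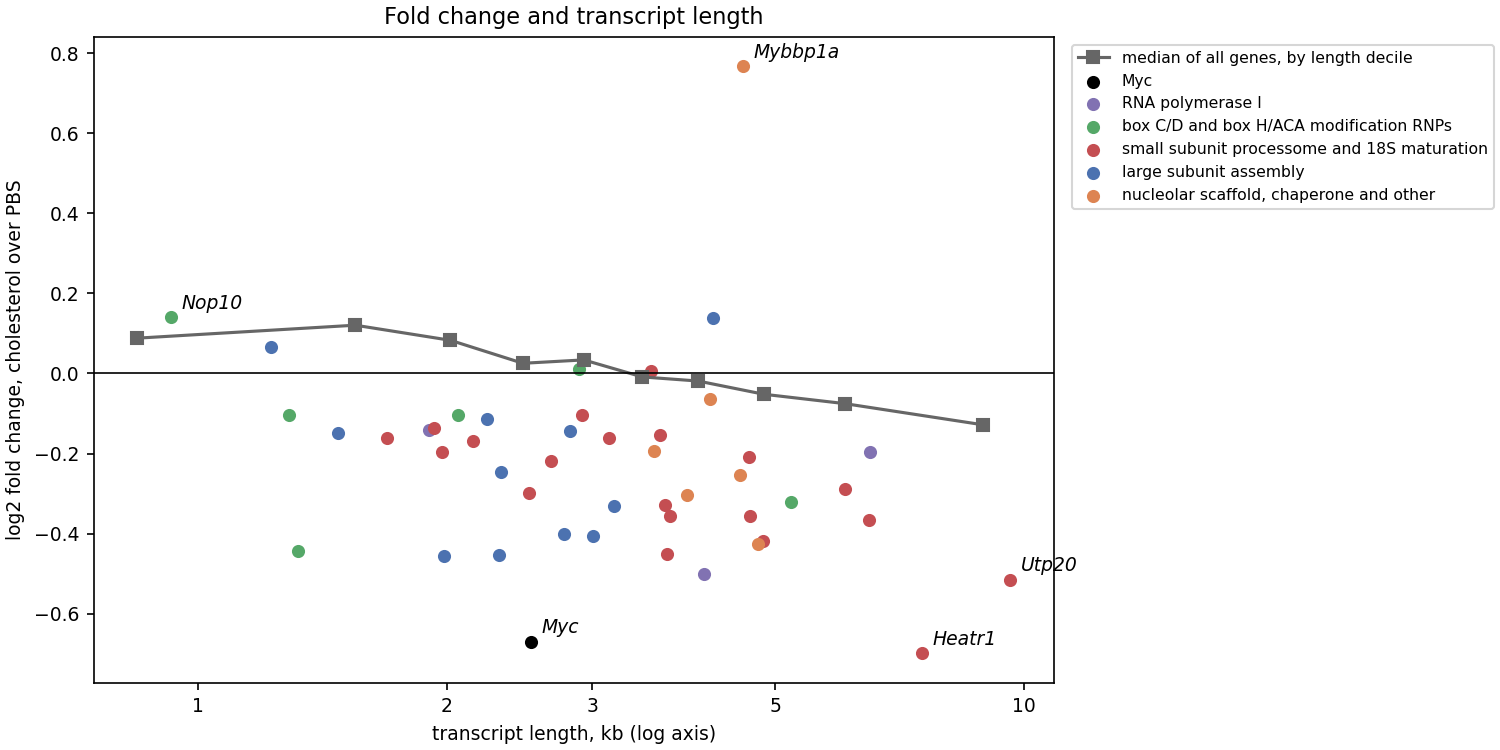
Log2 fold change (cholesterol over PBS) against transcript length in kb (log axis) for the 47 genes, colored by role, with the median of all genes tested in 10 length bins (gray squares). The bin median is 0.09 at the short end and -0.13 at the long end, and 41 of the 47 points lie below 0.

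A wider list of 92 further biogenesis factors held more lower than higher genes. Of these, 39 were lower (42.4%, against 19.7% of all genes) and 4 higher (4.35%, against 20.5%), with a median log2 fold change of -0.12. Mdn1, a giant ATPase that strips assembly factors from the large-subunit precursor, fell to 58.2 ± 3.71 CPM after cholesterol, against 93.2 ± 1.10 CPM after PBS (-0.68, adjusted p = 5.59e-06). The helicase Dhx33 (-0.43), the methyltransferase Ftsj3 (-0.34) and Rsl1d1 (-0.30) were next by p-value. The 4 that rose were Naf1, an assembly factor of box H/ACA particles (0.27), and the exosome subunits Exosc2 (0.48), Exosc8 (0.45) and Exosc9 (0.25). The exosome is a complex that trims ribosomal RNA and degrades many other transcripts. Its listed subunits moved both ways, since Exosc10 and Exosc5 were lower. Exosc1, Exosc3, Exosc4 and Exosc7 did not pass.

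The annotation terms deposited with the table, chosen for this purpose after the data were seen, gave a mixed picture beyond the 47 genes. Of 21 other tested genes of the small-subunit processome, 9 were lower (42.9%) and 1 higher (4.76%), with a median log2 fold change of -0.10. Of 41 others annotated to ribosomal RNA processing, 10 were lower (24.4%) and 3 higher (7.32%), with a median of -0.06. Of 26 others annotated to ribosome biogenesis, 6 were lower (23.1%) and 4 higher (15.4%), with a median of -0.03, shares near those of all genes (19.7% and 20.5%). Of 540 other genes annotated to the nucleolus, 109 were lower, which at 20.2% is close to the 19.7% of all genes, and 87 were higher (16.1%).

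MYC targets outside the nucleolus were lower more often than higher. Of 21 tested, 9 were lower (42.9%, against 19.7% of all genes) and 1 was higher (4.76%, against 20.5%). Their median log2 fold change was -0.09. Tfrc, the transferrin receptor, fell to 124 ± 7.44 CPM after cholesterol, against 178 ± 10.2 CPM after PBS (-0.52, adjusted p = 4.59e-05), and Apex1, a DNA repair nuclease, by 0.34 on the log2 scale. The mitochondrial chaperonin Hspd1 (-0.25), Nampt of NAD synthesis (-0.30), Odc1 and Srm of polyamine synthesis (-0.22 and -0.18), Prmt5 (-0.14), Cdk4 (-0.10) and Eif4a1 (-0.09) also fell. The gene that rose was Pcna, the replication clamp, at 159 ± 7.47 CPM after cholesterol and 118 ± 2.73 CPM after PBS (0.43, adjusted p = 3.19e-05). Pcna also stands among 17 listed cell cycle genes, all of which rose, against 20.5% of all genes (median log2 fold change 0.65). They rose in the same libraries in which Myc and most of the biogenesis genes fell.

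**Figure D5:**
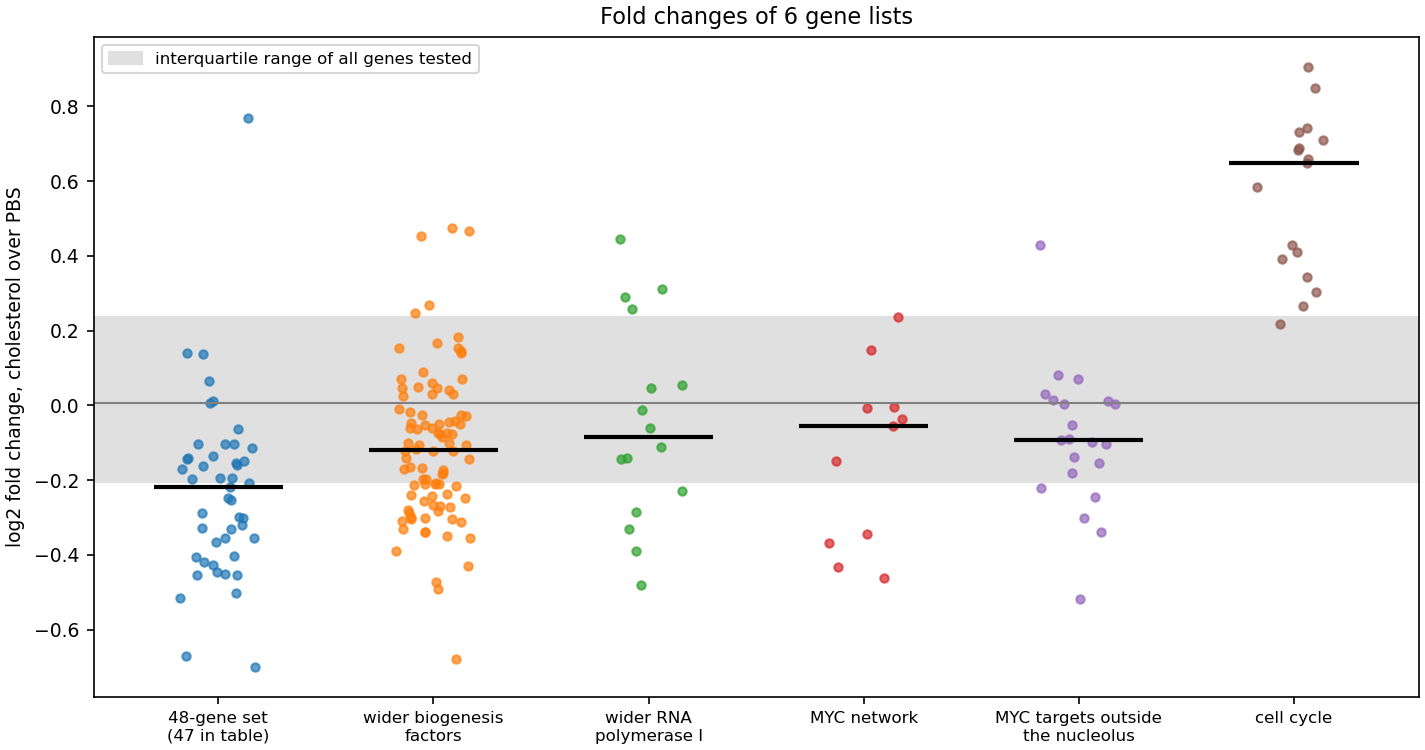
Log2 fold change (cholesterol over PBS) of each tested gene (points) in 6 gene lists, with the median of each list (black line) and the interquartile range of all genes tested (gray band). The medians are -0.22 for the 47 genes, -0.12 for the 92 wider biogenesis factors and 0.65 for the 17 cell cycle genes.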

How the data were processed

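Poly(A) RNA was sequenced as 6 paired-end libraries on an Illumina NovaSeq after a dUTP second-strand protocol, per the labels' protocols. Tools named in the submitters' processing notes, with no role given, are StringTie 2.1.6, HISAT2 2.2.1, cutadapt 1.9, edgeR and DESeq2. The build named there is rn6, but the gene IDs and positions in the table look like those of a later rat assembly. No genome was at hand to settle this, so none of these positions is printed. The deposited table gives whole-number counts and FPKM per gene, per the file headers. Use of the strand in counting was not given in the sources used here, and the table's positions served only to find entries that overlap each other within it. Transcript length was taken from the ratio of count to FPKM.

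Counts were tested with edgeR 4.0.16 (filterByExpr, TMM, glmQLFit, glmQLFTest, two-sided, Benjamini-Hochberg, R 4.3.3). The filter kept 16182 genes and left out 4240. The SE is the log2 fold change divided by the square root of F. Replicate numbers were not used to pair the libraries in the main test. A count of 3 equals 0.0425 to 0.047 CPM, for counting error only. The alternatives used no filter, a mean of at least 5 FPKM, other scalings, limma 3.58.1, DESeq2 1.42.0, FPKM with a pseudocount of 1 or 0.1, a length correction, a replicate term, and each library left out in turn.

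The genes, lists and rules were chosen with earlier results of these data known. Values in every library are given for Myc and, within each role, for the 4 genes with the smallest p and the most abundant gene; genes that spell out a small count were added after their values were seen. In the wider lists, up to 4 genes per direction with the smallest p are named first.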

Additional observations from a re-analysis of the deposited data

How the results depend on the processing

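Myc was lower in all 16 alternatives, with log2 fold changes between -0.73 and -0.63, and 25 of the 30 lower genes passed in each alternative that tested them. The exceptions were Imp4, Noc2l, Noc4l, Npm1 and Polr1a, whose log2 fold changes lay between -0.20 and -0.14. Between 28 and 37 of the 47 genes were lower, against 14.5% (no filter) to 27.2% (mean of at least 5 FPKM) of all genes. With that mean only 44 of the 47 were tested, and 29 were lower. The most were lower with scaling to the library median, which also gave 2517 higher and 4158 lower genes in all. These were 15.6% and 25.7% of all genes (37.7% of calls higher, against 51% with TMM). The median of the 47 was -0.28 with that scaling, -0.19 and -0.24 in FPKM with pseudocounts of 1 and 0.1, -0.25 with the length correction, and -0.25 to -0.20 with 1 library left out. Relative to the median of all genes it lay between -0.25 and -0.20. The count of higher genes was 0 with library median scaling, the DESeq2 Wald test and the replicate block, and 0 to 2 with 1 library left out, where the second gene was Mybbp1a without cholesterol replicate 2 (1.35, adjusted p = 0.0282). Without PBS replicate 3 the one higher gene was Nop10 (0.20, adjusted p = 0.0342). Some genes that did not pass in the main test passed as lower elsewhere. Of the 16 alternatives, Rrp9 passed in 8, Nop56 in 5, Nob1 in 4, Fbl and Nip7 in 3 each and Polr1c in 2. Wdr12 and Wdr75 passed in 1 each. Other genes that did not pass changed sign in places. Nhp2 was at -0.050 and Nop14 at -0.055 with library median scaling, and Nop16 at -0.032 with the length correction. Mybbp1a was at -1.2 under quantile normalization, -0.47 in FPKM with a pseudocount of 0.1 and -0.069 with the block. With 1 library left out, Nhp2 spanned -0.012 to 0.039, Nop14 -0.020 to 0.040 and Mybbp1a -0.55 to 1.35. The cause of these changes was not tested.

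The replicate block gave 29 lower genes, losing Noc4l. Same-numbered libraries had correlations of deviations of 0.0012, -0.037 and -0.026, so no pairing by number was visible. These values do not tell whether same-numbered libraries shared a culture. With 3 libraries per group, the smaller changes are the least certain.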
